A study of Mus musculus with 38 samples.

Results

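Cadherins are calcium-dependent adhesion receptors that hold neighbouring cells together by binding their like on the next cell. Classical cadherins reach into the cell through a tail that binds p120-catenin and beta-catenin, and through these the actin skeleton. In the kidney, tubule cells use E-cadherin, N-cadherin, cadherin-6 and the kidney-specific cadherin Ksp, whereas stromal cells use OB-cadherin. Here 9 genes of the family were chosen by symbol from the 21705 genes measured: Cdh1, Cdh2, Cdh3, Cdh4, Cdh6, Cdh11, Cdh13, Cdh16 and Cdh17. All 9 were in the table.

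RNA was sequenced in 38 mouse libraries in 10 groups. Tumours and cell lines came from mice in which doxycycline (Dox) switches on MYC in renal tubule cells, through Ksp-rtTA and Tet-O-MYC transgenes. MYC mice carry these alone, VM mice add KspCreERT2 and Vhl F/F (labelled Vhl-/-, deleted with tamoxifen), and VIM mice add germline loss of Ink4a and Arf. The Ksp promoter of these transgenes is that of Cdh16, one of the genes described here. The cells are MYC-2983, VM-3055 and VIM-3039, each 1 line from 1 tumour with 4 libraries from cells kept on Dox and 4 from cells after its withdrawal. By the paper's methods, RNA of the cells was taken the day after plating on or off Dox. No label says that the libraries of one line came from separate cultures, so p-values for cells measure the spread between these libraries. Tumours of the 3 genotypes gave 3 libraries per genotype, all on Dox, of which 2 MYC libraries came from mouse 2983 and were averaged, leaving 2 MYC animals. The 5 normal kidneys are labelled wild type with vehicle. Of these, 2 are labelled B6 and 3 are labelled KT, a term that the labels do not explain. Ages of the animals were not given.

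Values are RSEM estimates that the authors scaled to an upper quartile of 1000 per library, called units here. Groups were compared on log2(value + 1) with limma, and a call required both a difference over 1 and an adjusted p under 0.05. The worth of 1 read was estimated for each library, giving 8.22 to 36.6 M reads, and 3 reads, between 1.16 and 5.65 units, served as the floor of detection. The engineered genes followed the labels in the lines: with Dox, Vhl averaged 451 units in MYC-2983 cells but 13.1 in VM-3055 and 12.7 in VIM-3039, and Cdkn2a averaged 3804 units in VM-3055 cells but 29.98 in VIM-3039. VIM tumours held 219 to 312 units of Vhl, more than the 40.2 to 79.9 units of VM tumours. The row of mouse Myc was lower with Dox in each line, and whether it counts reads of the transgene was not tested. In normal kidney the summed proximal tubule markers lay between 272222 and 310104 units. Tumours held 3122 to 18302 units of them and the cell lines 3806 to 8265. In the lines Slc34a1, Slc5a2 and Slc22a6 were at or under the floor in every library, so other genes of the list made up these sums. Leukocyte markers summed to 1840.2 to 13638 units in tumours and 590 to 920 in kidney.

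The genes lie on 5 chromosomes of the mm9 (NCBIM37) assembly. Chromosome 8 carries Cdh11 (105156895 to 105309011, minus strand), Cdh16 (107125813 to 107148296, minus strand), Cdh3 (109034791 to 109080808, plus strand), Cdh1 (109127251 to 109194146, plus strand) and Cdh13 (120807633 to 121848821, plus strand). Cdh3 ends 46.4 kb before Cdh1 begins. Cdh2 lies on chromosome 18 (16747386 to 16967755, minus strand), Cdh4 on chromosome 2 (179177136 to 179634078, plus strand), Cdh6 on chromosome 15 (12963955 to 13103394, minus strand) and Cdh17 on chromosome 4 (11685294 to 11745042, plus strand). Short annotated genes overlap Cdh2, Cdh4, Cdh11 and Cdh13, so reads in those stretches could belong to either. The libraries were made with a stranded kit, but the strand setting of the counting is not given in the sources used here.

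Ksp-cadherin, encoded by Cdh16, was the leading cadherin in all 10 groups. Per kb of its longest coding transcript, it made up 88.6% ± 1.61 (SD, n = 5) of the sum of the 9 genes in normal kidney. Its share was 85.7% in MYC tumours, 89.0% in VM tumours and 81.6% in VIM tumours. In the lines it was lower, from 37.5% in VIM-3039 cells with Dox to 61.9% in VM-3055 cells without Dox. What filled the rest differed between tissue and cells. Cdh1 was next in normal kidney, at 9.88%, and in VIM tumours, at 10.2% on average, although there it ran from 2.33% to 16.9% and in replicate 3 stood below Cdh6. Cdh6 was next in MYC tumours at 9.29% on average, although in replicate 2 it stood below Cdh1, at 4.78% against 5.97%, and in VM tumours at 5.92%. In MYC-2983 and VIM-3039 cells Cdh2 was next, at 21.1% to 31.9%, and in VM-3055 cells Cdh6 was, at 19.5% and 24.2%. With the union of exons as the length, Cdh3 and not Cdh2 stood next in MYC-2983 and VIM-3039 cells with Dox. These lengths are those of the GENCODE annotation, while the values are of UCSC genes. Cdh6 has 1 transcript there, of 2632 bp, which is also its union of exons, so its own length was not varied.

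**Figure D1:**
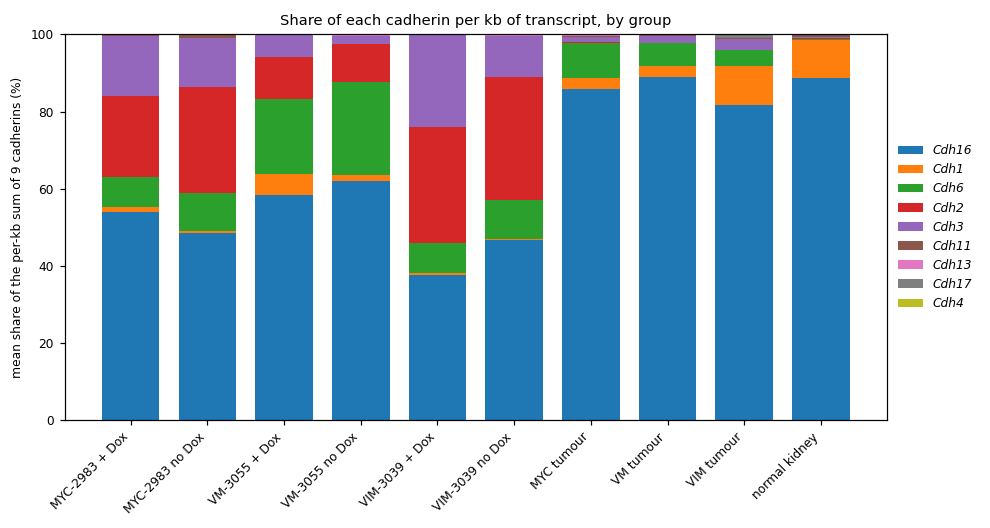
Mean share of each cadherin (percent, vertical axis) in the per-kb sum of the 9 genes, for the 10 groups on the horizontal axis. Cdh16 fills 81.6% to 89.0% of the bars of tumours and kidney and 37.5% to 61.9% of those of the cell lines, where Cdh2, Cdh3 and Cdh6 take most of the remainder.

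Withdrawal of Dox asks what the lines express a day after the MYC transgene loses its inducer. Of the cadherins that passed, all but Cdh1 of VIM-3039 cells were lower with Dox. In MYC-2983 cells Cdh2, Cdh6, Cdh11 and Cdh17 were lower, 4 of the 8 cadherins tested, where 19.5% of all 15104 genes tested passed, 4.49% as higher and 15% as lower. In VM-3055 cells Cdh2, Cdh6, Cdh13, Cdh16 and Cdh17 were lower, 5 of 8, where 24.8% of 14319 genes passed, 5.92% as higher and 18.9% as lower. In VIM-3039 cells Cdh6, Cdh13 and Cdh17 were lower and Cdh1 was higher, together 4 of 8, where 24.3% of 13998 genes passed, 16.6% as lower and 7.67% as higher. The median difference of the tested cadherins was −0.90, −1.27 and −0.87 on the log2 scale in the 3 lines, and that of all genes tested was −0.13, −0.26 and −0.15. Libraries with and without Dox did not overlap for 7, 6 and 7 of the 8 cadherins, where the shares of all genes were 70.5%, 68.1% and 70%.

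How the libraries were scaled moved these counts. Of all genes that passed, 76.95%, 76.17% and 68.37% were lower with Dox, but 67.52%, 59.84% and 56.57% after trimmed-mean (TMM) rescaling and 57.94%, 50.58% and 50.5% after quantile normalisation. TMM moved the median of all genes to −0.01, −0.05 and −0.01. Cdh2, Cdh6, Cdh16 and Cdh17 kept their direction under both. Cdh2 and Cdh6 in MYC-2983 cells then lost their calls, at −0.93 and −0.87 under TMM and at −0.90 and −0.97 under quantile normalisation. Under TMM so did Cdh2 in VM-3055 cells, at −0.93, and Cdh6 in VIM-3039 cells, at −0.87.

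Cdh6, which encodes a cadherin of the embryonic nephron and the proximal tubule, passed as lower with Dox in each line. Cdh17 did so too, as described below. Of the 9 genes, Cdh6 is the only 1 with a RefSeq start in the set of promoters used. The letters before that start are shown for that reason. On GRCm38.p6 the 250 bases before the start, on the minus strand, are chr15:13173676-13173925. Capitals mark the only match to CANNTG, the letters of an E-box, a class of site bound by MYC and MAX among other factors:
Cdh6: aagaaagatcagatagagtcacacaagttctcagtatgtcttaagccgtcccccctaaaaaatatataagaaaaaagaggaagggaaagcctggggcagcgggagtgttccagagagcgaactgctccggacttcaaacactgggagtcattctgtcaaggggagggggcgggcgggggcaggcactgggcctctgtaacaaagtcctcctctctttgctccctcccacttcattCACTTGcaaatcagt
The motif reads the same on both strands. Its match here, CACTTG, begins at base −15 from the start. CACGTG, the form of E-box that MYC with MAX prefers and itself a case of CANNTG, is not in this window. Of 32851 promoters cut to the same length, 66.2% held CANNTG and 6.02% held CACGTG.

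Cdh6 stood at 1099.7, 1183, 1155 and 1201 units in MYC-2983 cells with Dox and at 2177, 2321, 2407 and 2408 without. In VM-3055 cells it stood at 1091, 1089, 965 and 1059.6 units with Dox and 3065, 3358, 2989.9 and 3322 without. In VIM-3039 cells the values were 675, 685, 722 and 737 units with Dox and 1509.8, 1370.1, 1412 and 1475 without. Every library without Dox was above every library with it in the same line. The log2 differences were −1.005 ± 0.0354 (SE; adjusted p = 1.20e-14 with limma), −1.60 ± 0.0519 (adjusted p = 1.48e-14) and −1.03 ± 0.0419 (adjusted p = 1.60e-15). The fall was larger in VM-3055 than in MYC-2983 cells by 0.59 on the log2 scale (adjusted p = 3.43e-07), and smaller in VIM-3039 than in VM-3055 cells by 0.57 (adjusted p = 1.16e-06), neither over 1. In MYC-2983 cells Cdh6 sat at the limit of the test, and its difference shrank to −0.98 without Dox replicate 1 and to −0.99 without replicate 3 or 4 of the cells without Dox.

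Cdh2 encodes N-cadherin, the cadherin of neurons and mesenchyme that proximal tubule cells also carry. It stood at 5972, 5762, 5384 and 5966 units in MYC-2983 cells with Dox and at 11839, 11855, 12183 and 12143 without. VM-3055 cells held 1028, 1121, 1059 and 1025 units with Dox and 2495, 2542, 2188 and 2263 without. VIM-3039 cells held 4805, 4957, 5154 and 4860.1 units with Dox and 8367, 8318, 8276 and 8397 without. No library with Dox reached one without it in the same line. The log2 difference was −1.06 ± 0.0315 in MYC-2983, −1.16 ± 0.0531 in VM-3055 cells and −0.75 ± 0.0300 for VIM-3039, and the last did not exceed 1. By the test of the difference itself, the response was smaller in VIM-3039 than in VM-3055 cells by 0.41 (adjusted p = 2.21e-05).

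Cdh16 held 8407, 9172, 9660.0 and 8373 units in MYC-2983 cells with Dox and 12425, 12916, 12381 and 13110.4 without. In VM-3055 cells it held 3479, 3512, 3478 and 3464 units with Dox and 8914, 8964, 8929 and 9229.8 without. In VIM-3039 cells it held 3699.6, 3696, 3685 and 3702 units with Dox and 7171, 7099, 7400.0 and 7668 without. The groups were apart in all 3 lines, with log2 differences of −0.52 ± 0.0397, −1.37 ± 0.0390 and −0.99 ± 0.0305. Only VM-3055 passed, while VIM-3039 would pass at −1.003 without replicate 2 of its cells without Dox. The response was larger in VM-3055 than in MYC-2983 cells by 0.85 on the log2 scale (adjusted p = 1.78e-10), and in VIM-3039 than in MYC-2983 cells by 0.47 (adjusted p = 1.84e-07).

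Cdh17, the liver and intestine cadherin, had low values and large relative differences. MYC-2983 cells held 5.03, 13.1, 15.17 and 16.8 units with Dox and 53.8, 59.2, 53.2 and 67.5 without. VM-3055 cells held 4.43, 3.40, 2.55 and 0.877 units with Dox, which are 6, 4, 3 and 1 estimated reads, and 27.3, 27.5, 25.6 and 20.5 units without. VIM-3039 cells held 10.4, 11.1, 6.56 and 1.62 units with Dox and 24.7, 65.8, 36.7 and 39.8 without. In no line did the groups overlap. The log2 differences were −2.24 ± 0.257, −2.88 ± 0.309 and −2.48 ± 0.381, all past the test (adjusted p = 2.57e-07, 1.42e-07 and 4.72e-06).

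Cdh13 encodes T-cadherin, which is anchored to the membrane by a lipid and lacks a tail. It was listed at 0 in all 4 MYC-2983 libraries with Dox, and 1 library without Dox held 3 reads, so it was not tested there. In VM-3055 cells it held 5.17, 6.81, 3.40 and 5.26 units with Dox and 33.5, 41.9, 37.2 and 40.3 without. In VIM-3039 cells it held 9.72, 15.3, 4.59 and 16.97 units with Dox and 48.4, 50.2, 56.1 and 45.6 without. Both lines with Vhl deleted thus had more Cdh13 after withdrawal, by differences of −2.70 ± 0.228 and −2.15 ± 0.281 (adjusted p = 5.61e-09 and 4.95e-07). The response differed from that of MYC-2983 cells by −2.33 (adjusted p = 0.000103) and −1.78 (adjusted p = 0.00448). MYC-2983 cells had no library above the floor and Cdh13 entered these tests through the other lines, so both values restate the changes within those lines. Of the 9 cadherins Cdh13 alone passed as lower in these 2 tests, beside Cdh11 as higher in the first, where 8.78% of all genes passed (3.26% higher, 5.53% lower) and 9.06% (4.54% higher, 4.52% lower). Between VIM-3039 and VM-3055 cells 0 of 8 cadherins passed with limma and also with limma voom on estimated reads, where 6.05% of genes passed (3.7% higher, 2.35% lower), although 5 had an adjusted and an unadjusted p under 0.05.

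Cdh11 encodes OB-cadherin of osteoblasts and other mesenchymal cells. MYC-2983 cells held 101, 117, 86.1 and 116 units with Dox and 289, 300.0, 306 and 304 without, 2 ranges well apart. The difference was −1.51 ± 0.0847 (adjusted p = 9.03e-12), and the response differed from that of VM-3055 cells by 1.46 (adjusted p = 0.000788). VM-3055 cells held 0.882 to 3.88 units, at or under the floor in 6 of 8 libraries, so this value restates the change in MYC-2983 cells, while VIM-3039 cells held 1.31 to 6.64, at most 8 reads, and no difference with Dox was detectable at this depth. Cdh4, the R-cadherin of retina and brain, held at most 10 reads in MYC-2983 libraries and at most 1 in the other lines. Its difference in MYC-2983 cells was −0.80 ± 0.428 (adjusted p = 0.1004) and reached −1.05 (adjusted p = 0.0445) without Dox replicate 2.

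Cdh1 and Cdh3 went another way. Cdh1 encodes E-cadherin, the cadherin of epithelial junctions. In MYC-2983 cells it stood at 309.7, 322, 327 and 309 units with Dox and at 250.0, 274, 268 and 275 without. VM-3055 cells held 523, 475, 504 and 471 units with Dox and 370.4, 393, 332 and 409 without. VIM-3039 cells held 83.3, 95.7, 74.1 and 88.9 units with Dox and 42.7, 40.1, 44.9 and 39.8 without. Cdh1 was higher with Dox in all 3 lines without overlap, by 0.25 ± 0.05004, 0.39 ± 0.0699 and 1.01 ± 0.137 on the log2 scale (adjusted p = 0.000200, 6.22e-05 and 8.46e-07), and only VIM-3039 passed the limit of 1. That call was lost without Dox replicate 2 (0.95) or 4 (0.99), and without replicate 2 (0.99) or 4 (0.98) of the cells without Dox, and with a pseudocount of 10 (0.88). The difference with Dox was higher in VIM-3039 than in VM-3055 cells by 0.61 (adjusted p = 0.000776) and than in MYC-2983 cells by 0.76 (adjusted p = 1.29e-05).

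Cdh3, the P-cadherin gene next to Cdh1, was split between lines. It stood at 3438, 3440.5, 3411 and 3560.3 units in MYC-2983 cells with Dox and at 4381, 4496, 4528 and 4724 without. VM-3055 cells held 534, 444, 431 and 494 units with Dox and 432, 421, 416 and 435 without. VIM-3039 cells held 3165, 3153, 3190.3 and 3273 units with Dox and 2206, 2252, 2173 and 2362 without. Thus Cdh3 was lower with Dox in MYC-2983 cells (−0.39 ± 0.0271), overlapped in VM-3055 cells (0.15 ± 0.0683, adjusted p = 0.0512) and was higher in VIM-3039 cells (0.51 ± 0.0324). The responses of VIM-3039 and MYC-2983 cells differed by 0.90 (adjusted p = 1.96e-13), under the limit of 1.

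**Figure D2:**
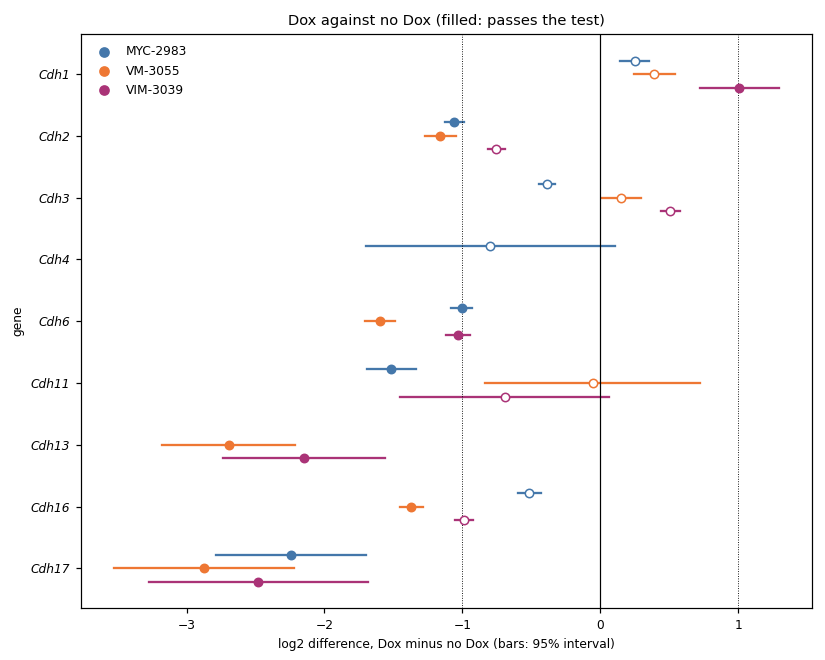
Differences in log2(value + 1) with Dox against without it for each cadherin (rows) in 3 lines, with 95% intervals; filled points passed the test and dotted lines mark 1 and −1. Cdh6 and Cdh17 are filled on the left for all 3 lines, and Cdh1 lies to the right of 0 in each.

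Junction partners of the cadherins and regulators of epithelial-mesenchymal transition (EMT) were counted in the same fits. Of 18 junction partners in the table, 4 of 17 tested were lower with Dox in MYC-2983 cells, 6 of 16 in VM-3055 cells and 6 of 16 in VIM-3039 cells, where 1 was higher. Of all genes, 15%, 18.9% and 16.6% were lower. Vcl, which encodes vinculin of actin anchoring, fell by 1.5 in MYC-2983, by 1.13 in VM-3055 and by 1.98 in VIM-3039 cells on the log2 scale. Jup, encoding plakoglobin, fell by 1.25, by 1.22 and by 1.49 in the same order. Pvrl2, a nectin, fell by 1.23, by 1.48 and by 1.75. Ctnnd2, a relative of p120-catenin, fell by 1.42 in VM-3055 and by 1.74 in VIM-3039 cells, as did Ctnnd1, p120-catenin itself, by 1.06 and by 1.23. Ctnnal1, a relative of alpha-catenin, rose by 1.01 in VIM-3039 cells. The list's median difference was −0.32, −0.76 and −0.79 in the 3 lines, beside −0.13, −0.26 and −0.15 over all genes. Of the EMT regulators, 1 of 6 tested passed as lower with Dox in MYC-2983, 2 of 5 in VM-3055 and 2 of 6 in VIM-3039 cells, and 0 as higher. The shares of all genes are those given above. Snai2 was lower in MYC-2983 (−1.47) and VIM-3039 cells (−1.57), Zeb1 in VM-3055 (−1.39) and VIM-3039 cells (−1.03), and Zeb2 in VM-3055 cells (−1.25). Twist2 was higher in VIM-3039 cells by 0.50, under the limit of 1. Of 13 other cadherins, 4 were tested in MYC-2983 cells with none passing, and Cdh24 alone was tested in the other lines, where its difference was −0.92 in VM-3055 cells and, past the test, −1.06 in VIM-3039 cells.

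Markers of other cells moved with Dox as well. The 8 fibroblast and stroma markers summed to 215 to 269 units in MYC-2983 cells with Dox and 974 to 1125 without. In VM-3055 cells they summed to 85.7 to 111 units with Dox and 631 to 711 without, and in VIM-3039 cells to 52.8 to 71.4 and 182 to 241. Lum, Fap and Thy1 were at or under the floor throughout VM-3055 and VIM-3039 cells, and Fap throughout MYC-2983 cells. The 3 smooth muscle markers (Acta2, Myh11 and Des) summed to 15678 to 18460 units in MYC-2983 cells with Dox and 66806 to 71138 without. Their part in the cadherin differences was not tested.

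VIM-3039 and VM-3055 cells differ by the loss of Ink4a and Arf, and by being 2 lines from 2 tumours. With Dox, VIM-3039 cells had less Cdh1 and more Cdh2 and Cdh3, 3 of 8 cadherins tested, where 19.1% of 14060 genes passed, 9.69% as higher and 9.45% as lower. Cdh1 averaged 85.5 ± 9.10 units (SD, n = 4) against 493 ± 24.8, a log2 difference of −2.52 ± 0.0834 (SE; adjusted p = 1.72e-13). Cdh2 averaged 4944 ± 154 units against 1058 ± 44.4, a difference of 2.22 ± 0.0357 (adjusted p = 2.31e-17). Cdh3 averaged 3196 ± 54.1 units against 476 ± 47.3, a difference of 2.75 ± 0.0541 (adjusted p = 2.64e-16). Cdh16 differed little, at 0.09 ± 0.0263 (adjusted p = 0.00891).

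Without Dox the same 3 genes passed in the same directions, with differences of −3.13 ± 0.102, 1.82 ± 0.0481 and 2.40 ± 0.0446, and Cdh6 was lower by 1.14 ± 0.0482 on the log2 scale. These 4 of 8 stood against 21.7% of 14461 genes, with 9.21% higher and 12.5% lower. Cdh17 was higher in VIM-3039 cells with Dox by 1.02 ± 0.460 and did not pass (adjusted p = 0.0600), and it passed at 1.23 without VM-3055 Dox replicate 1 and at 1.51 without VIM-3039 Dox replicate 4. Cdh13 differed by 0.93 and passed at 1.05 without VM-3055 Dox replicate 2 and at 1.28 without VIM-3039 Dox replicate 3. Of 6 EMT regulators 2 passed, both as higher in VIM-3039 cells, beside the shares of all genes given above. Snai2 and Twist1 differed by 4.799 and 5.46 on the log2 scale with Dox and by 6.16 and 5.54 without. Both were at or under the floor in every VM-3055 library, so the sizes rest on the 1 unit added. They entered these tests through VIM-3039 cells, so that they passed is no support beyond these values. MYC-2983 cells with Dox averaged 47.9 units of Snai2 and 124 of Twist1, beside 31.6 and 68.4 in VIM-3039 cells with Dox.

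MYC-2983 cells carry Vhl and Cdkn2a, and their libraries are numbered as a separate set in the labels, so line, genotype and set cannot be told apart. With Dox, VM-3055 cells had less Cdh2 (−2.45), Cdh3 (−2.87), Cdh11, Cdh16 (−1.35) and Cdh17 (−1.81) than MYC-2983 cells and more Cdh13. Cdh4 also passed as lower, at 0.18 units against 2.29 with overlapping libraries, but lost its call with pseudocounts of 0.1 and 10, with no filter, under quantile normalisation and with voom (adjusted p up to 0.192). Cdh17 lost it with a pseudocount of 10 (−0.79) and under quantile normalisation (−0.72), and Cdh13 with a pseudocount of 10 (0.60). The 7 of 9 that passed, 1 higher and 6 lower, stood against 24.6% of 14780 genes, 6.54% higher and 18.1% lower. Cdh11 was at or under the floor in VM-3055 cells, at least 39.9-fold lower than in MYC-2983 cells, with the highest floor of a single library as the bound. Cdh13 was at least 3.08-fold higher, against the floor of MYC-2983 cells. It was listed at 0 in all 4 MYC-2983 libraries with Dox and entered the test through VM-3055 cells alone. That it passed as higher is thus no support beyond these values. For Cdh4 no fold is given, since MYC-2983 cells averaged 2.29 units and the floor of VM-3055 cells is 2.63.

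VIM-3039 cells with Dox had less Cdh1 (−1.88), Cdh11 (−5.01) and Cdh16 (−1.27) than MYC-2983 cells and more Cdh13, at least 6.94-fold. These 4 of 8 stood against 23.9% of 14685 genes, 5.66% higher and 18.3% lower. Cdh11 was at or under the floor in 2 of 4 VIM-3039 libraries with Dox, so its size rests on the 1 unit added. It ran from −5.48 to −3.21 over the other settings with all libraries kept. Cdh13 was listed at 0 in every MYC-2983 library with Dox and entered this test through VIM-3039 cells alone. Its call is thus no support beyond these values. Of all genes that passed against MYC-2983 cells, 73.4% were lower in VM-3055 and 76.36% were lower in VIM-3039, and 45.47% and 49.22% after quantile normalisation. Cdh2 (−0.22) and Cdh3 (−0.12) were near the levels of MYC-2983 cells, although both differences exceeded the spread (adjusted p = 4.92e-05 and 0.000798), and that of Cdh3 turned to 0.04 under TMM. Cdh17 differed by −0.79 (adjusted p = 0.130) and passed at −1.14 (adjusted p = 0.0228) without MYC-2983 Dox replicate 1.

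**Figure D3:**
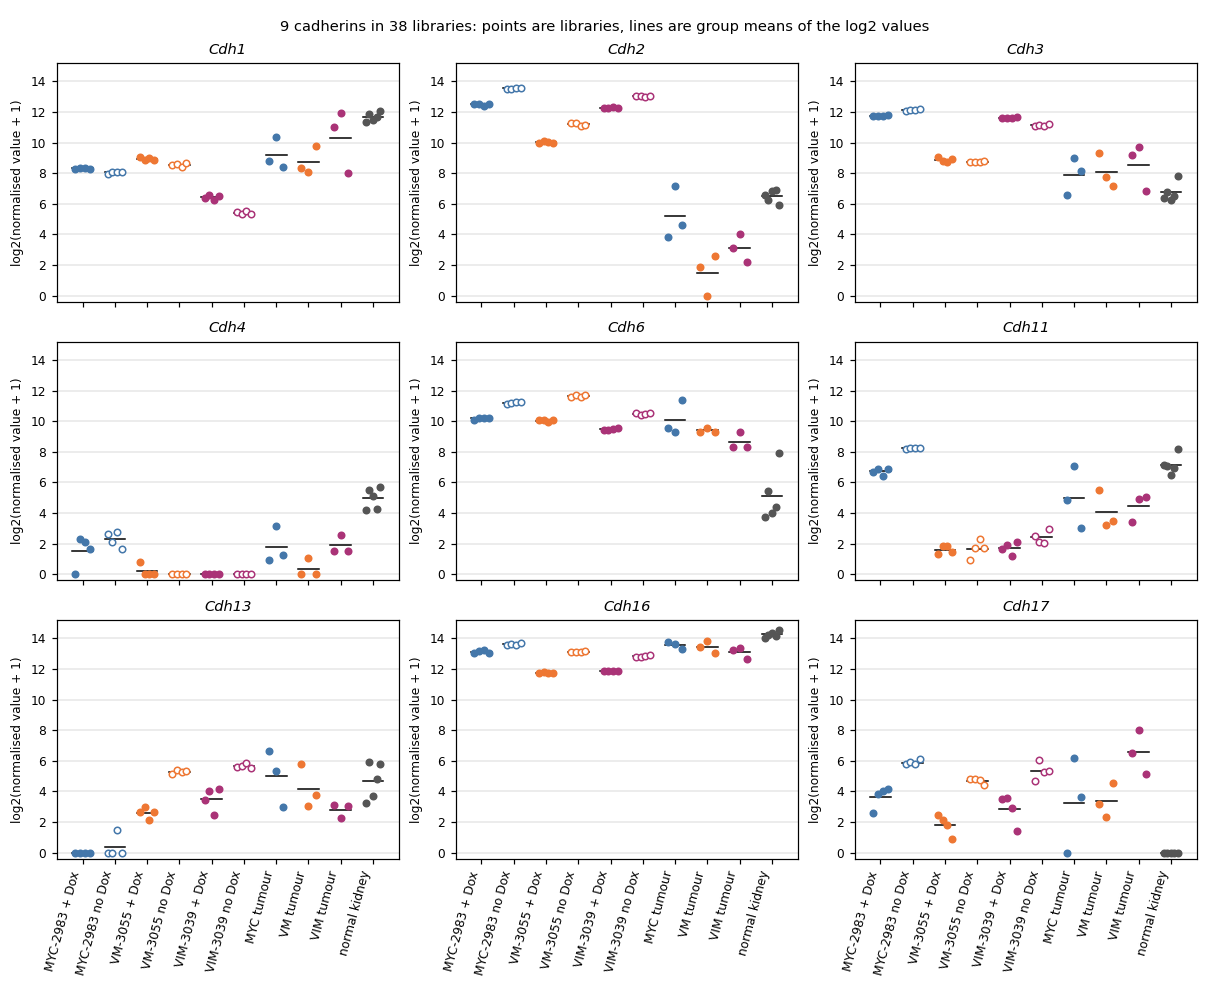
Normalised values of the 9 cadherins (one panel each, log2(value + 1) on the vertical axis) in every library of the 10 groups on the horizontal axis; open points are cells without Dox and bars are group means. Cdh2 and Cdh3 stand highest in MYC-2983 and VIM-3039 cells, Cdh6 is lowest in normal kidney, and Cdh17 is at 0 in all 5 kidneys.

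Tumours were set beside normal kidney to see which cadherins change in the tissue. Cdh6 was higher and Cdh4 and Cdh11 were lower in all 3 genotypes. In these bulk samples, fewer cells of a type and less RNA per cell cannot be told apart. Of 8 cadherins tested in MYC tumours, 1 was higher and 3 were lower, where 37.1% of 16491 genes passed, 19.4% higher and 17.7% lower. In VM tumours 3 of 9 were higher and 4 lower, where 39.8% of 16521 genes passed, 17.3% higher and 22.5% lower. Of 9 cadherins tested in VIM tumours 3 were higher and 5 lower, where 39.6% of 16569 genes passed, 18.9% higher and 20.7% lower. The calls as higher in VM and VIM tumours include Cdh17, which was at 0 in every kidney. Those as lower in VM tumours include Cdh4, which was at or under the floor in every VM tumour. The 3 comparisons share the kidneys, so their agreement is not independent.

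Cdh6 was scarce in 4 of the 5 kidneys, at 12.1, 42.3, 14.7 and 19.5 units, while replicate 5, labelled KT, held 237. MYC tumours held 750.0, 637 and 2627 units, the last 2 from mouse 2983. VM tumours held 638, 749 and 635 units and VIM tumours 318, 615 and 323. All 9 tumour libraries were above all 5 kidneys. The differences were 5.04 ± 1.05 in MYC, 4.32 ± 0.831 in VM and 3.57 ± 0.854 in VIM tumours (adjusted p = 0.00436, 0.00157 and 0.00598).

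Cdh17 was listed at 0 in all 5 kidneys. It was found in 8 of the 9 tumour libraries, at 0, 71.0 and 11.3 units in MYC, 7.99, 4.12 and 22.2 in VM and 90.4, 262 and 34.9 in VIM tumours. VIM tumours were all above the other 2 genotypes except for the MYC library at 71.0. Against the highest floor of a kidney library, 5.19 units, VIM tumours averaged at least 24.9-fold, MYC tumours at least 3.96-fold and VM tumours at least 2.20-fold higher. Cdh17 entered the tests of VM and VIM tumours through the tumours alone, so that it passed there is no support beyond these values. In MYC tumours it was above 0 in too few animals to be tested.

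Cdh1 held 2600.3, 3775, 2818, 3326 and 4372 units in normal kidney. It was lower in MYC tumours, at 446, 1339.5 and 335 units, and in VM tumours, at 329, 274 and 878, without overlap with the kidneys. The differences were −2.44 ± 0.279 (adjusted p = 0.000229) and −2.95 ± 0.346 (adjusted p = 7.07e-05). VIM tumours spread from 255 over 2075 to 3847 units, and the difference of −1.39 ± 0.704 did not pass (adjusted p = 0.126). It passed at −2.19 (adjusted p = 0.0222) without VIM tumour replicate 2, the library with 3847 units, and shrank to −0.23 (adjusted p = 0.504) without replicate 3, the library with 255.

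Cdh2 held 93.4, 75.9, 115, 119 and 60.7 units in kidney. MYC tumours held 13.1, 145 and 24.0 units, VIM tumours 7.53, 15.04 and 3.67, and VM tumours 2.66, 0 and 4.93. Only the MYC group overlapped the kidneys, through 1 of the libraries of mouse 2983. The difference of VM tumours was −5.03 ± 0.585 (adjusted p = 6.68e-05). Of their 3 libraries 2 were at or under the floor, so its size rests on the 1 unit added. It ran from −6.33 to −3.02 over the other settings with all libraries kept. VIM tumours, with 1 of 3 libraries at or under the floor, differed by −3.40 ± 0.458 (adjusted p = 0.000210). MYC tumours differed by −1.39 ± 0.645 (adjusted p = 0.104). Without that library, MYC tumour replicate 2, the last became −2.28 (adjusted p = 0.00215), and without replicate 1 it became −0.0894 (adjusted p = 0.882), with mouse 2983 alone.

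Cdh16 held 16888, 19428, 20501, 18226 and 23962 units in kidney, and every tumour library was lower. MYC tumours held 13766, 12503 and 10230.2 units, VM tumours 11336, 14725 and 8544, and VIM tumours 9814, 10851 and 6526. The difference of VIM tumours, −1.15 ± 0.223, passed (adjusted p = 0.00183). It lost the call at −0.93 without replicate 3 and at −0.63 (adjusted p = 0.108) under quantile normalisation. Those of MYC (−0.65 ± 0.227) and VM tumours (−0.80 ± 0.215) were under the limit of 1.

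Cdh4 held 17.3, 43.8, 33.5, 17.9 and 51.9 units in kidney and at most 7.72 in any tumour. It was lower in all 3 genotypes, by at least 8.23-fold in VM tumours, which were all at or under the floor. Cdh4 was above 0 in too few VM tumours to meet the filter and entered that test through the kidneys. Its call in VM tumours is thus no support beyond these values. The differences in MYC and VIM tumours were −3.24 ± 0.634 and −3.08 ± 0.516 (adjusted p = 0.00325 and 0.000776). Cdh11 held 140.1, 131, 87.0, 122 and 287 units in kidney against 28.0, 136 and 7.06 in MYC, 43.9, 8.25 and 9.86 in VM, and 9.42, 28.8 and 31.2 in VIM tumours. VM and VIM tumours lay below every kidney, with differences of −3.11 ± 0.575 and −2.72 ± 0.491 (adjusted p = 0.00124 and 0.00120). MYC tumours overlapped them, and the difference was −1.635 ± 0.511 (adjusted p = 0.0269). That call was lost without MYC tumour replicate 1 (−0.97) or 3 (−1.18) and without kidney replicate 1 (adjusted p = 0.0501), and also with no filter, with all tissue groups in one fit and against the B6 kidneys alone (adjusted p = 0.0709 to 0.155).

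Cdh3 held 83.0, 107, 74.97, 91.2 and 221 units in kidney. It stood at 92.4, 505 and 288 units in MYC, 638, 210.3 and 145 in VM, and 573, 836 and 112 in VIM tumours, overlapping the kidneys in each genotype. The rises in VM (1.34 ± 0.505, adjusted p = 0.0462) and VIM tumours (1.82 ± 0.615, adjusted p = 0.0312) passed narrowly. The VM call was lost without tumour replicate 1 (0.72) or 2 (1.51, adjusted p = 0.0648) and without any of kidney replicates 1 to 4 (adjusted p = 0.0762 to 0.0910). The VIM call was lost without tumour replicate 1 (1.52) or 2 (1.25) and without any of kidneys 1 to 4 (adjusted p = 0.0549 to 0.0646). Both calls were lost with no filter and against the B6 or the KT kidneys alone, and that of VM tumours also with a pseudocount of 10, with all tissue groups in one fit and with voom. In MYC tumours Cdh3 passed at 1.89 (adjusted p = 0.0207) only without replicate 1, which leaves 1 animal.

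Cdh13 held 8.65, 58.4, 12.05, 27.7 and 55.7 units in kidney, 99.8, 40.1 and 7.06 in MYC and 53.3, 7.22 and 12.3 in VM tumours, with no difference past the test. VIM tumours held 7.53, 3.76 and 7.34 units, at most 4 reads, and their difference of −1.91 ± 0.673 passed (adjusted p = 0.0374). It did not pass without any 1 of the VIM tumours (−2.05, −1.63 and −2.04, adjusted p = 0.0596 to 0.110), nor without kidney replicate 2, 4 or 5 (adjusted p = 0.0701 to 0.0797). It also lost the call with no filter and with all tissue groups in one fit, and shrank to −0.69 (adjusted p = 0.406) against the B6 kidneys alone.

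**Figure D4:**
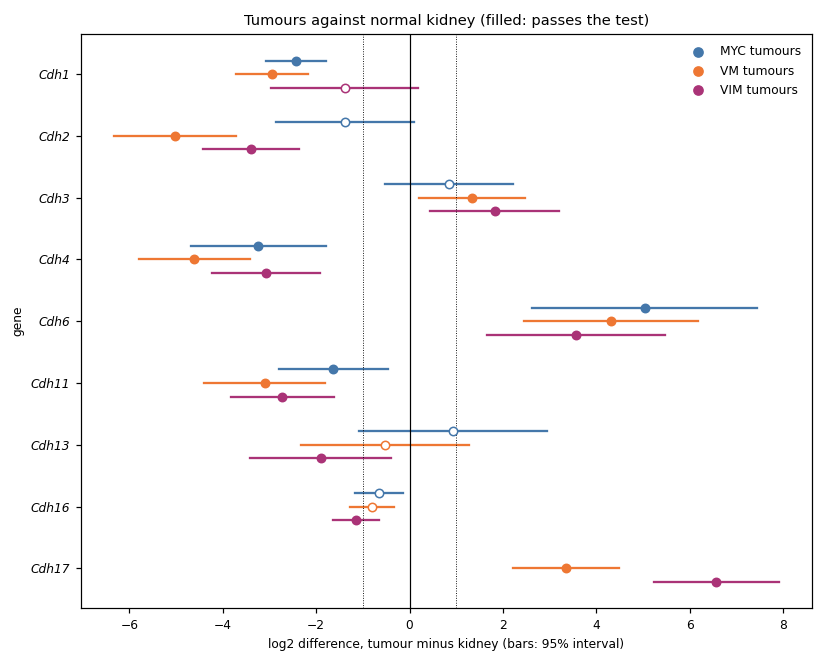
Differences in log2(value + 1) of MYC, VM and VIM tumours against normal kidney for each cadherin (rows), with 95% intervals; filled points passed the test. Cdh6 and Cdh17 lie far to the right of 0 and Cdh4 and Cdh11 to the left, while Cdh17 of MYC tumours was not tested.

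The kidneys differ among themselves, and replicate 5 stood highest in Cdh1, Cdh3, Cdh4, Cdh6, Cdh11 and Cdh16. The same library had the highest summed markers of stroma (4288 units against 1312 to 2753), of loop, distal tubule and collecting duct (174273 against 80972 to 118639) and of podocytes (9423 against 3422 to 5149.6). Without it, Cdh6 remained higher in all 3 genotypes, by 5.74, 5.02 and 4.27 on the log2 scale.

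Between tumour genotypes no cadherin passed. In VIM against VM tumours 0 of 9 passed with limma, where 0.249% of 16096 genes did, 0.174% as higher and 0.0746% as lower. By unadjusted p 2 were under 0.05, Cdh17 (3.22 ± 0.916, limma unadjusted p = 0.00707) and Cdh6 (−0.75 ± 0.322). In VM against MYC tumours 0 of 9 passed, where 0% of 16085 genes did, and Cdh2 alone had an unadjusted p under 0.05, at −3.64 ± 1.15. In VIM against MYC tumours 0 of 9 passed, where 0.00616% of 16246 genes did, and Cdh6 (−1.47 ± 0.464) and Cdh13 (−2.84 ± 0.872) were under 0.05 unadjusted. A limma voom fit on the estimated reads also gave 0 in each of the 3 comparisons. The intervals were wide, with that of Cdh1 in VIM against VM tumours from −0.51 to 3.63 on the log2 scale.

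Other cell types moved with the tumour differences. The 7 endothelial markers summed to 3874 to 6348 units in kidney and 392 to 2189 in tumours, and no gene of the list was at or under the floor in all libraries of a group. Stromal markers summed to 1312 to 4288 units in kidney and to 563 to 8742 in tumours, the highest sum being that of MYC tumour replicate 2, against 1136 and 821 in the other MYC libraries, and this library held the most Cdh2 and Cdh11 of the tumours. Loop, distal tubule and collecting duct markers summed to 80972 to 174273 units in kidney, and in VM tumours to 4.93 to 16.5, where 7 of the 8 genes were at or under the floor. They summed to 45.7, 2872 and 98.9 units in MYC tumour replicates 1 to 3 and to 183, 7023 and 84.4 in those of VIM, and no gene of the list was at or under the floor in every library of either genotype. MYC and VIM tumour replicates 2, with the highest sums, also held the most Cdh1 and Cdh17 of their genotypes. Their part in the cadherin differences was not tested. Of 13 other cadherins, Cdh5, the endothelial VE-cadherin, was lower in MYC (−1.13) and VIM tumours (−2.09). Cdh19 passed as lower in MYC and VM tumours, where it was listed at 0 in every library. It entered those tests through the kidneys alone, at 1.63 to 8.86 units, so its calls are no support beyond these values. Of 18 junction partners, 2 were higher and 3 lower in MYC, 1 and 6 in VM, and 2 and 5 in VIM tumours, shares near or below the 37.1%, 39.8% and 39.6% of all genes that passed. Pvrl1, encoding nectin-1, rose by 1.642, 1.75 and 1.57 on the log2 scale in the 3 genotypes. Ctnna2, the alpha-catenin of neurons, passed as lower in all 3, is among the lower partners counted, and was listed at 0 in every tumour. It entered these tests through the kidneys alone, at 2.53 to 77.9 units, so its calls are no support beyond these values. Pvrl3, encoding nectin-3, fell by 1.69 in MYC and by 2.07 in VIM tumours. Of 6 EMT regulators, 1 was higher and 1 lower in MYC, 1 and 2 in VM, and 0 and 3 in VIM tumours. Snai2 was lower in all 3, by differences of −2.56, −3.85 and −3.23, Zeb1 was lower in VM (−1.73) and VIM tumours (−2.08), and Zeb2 was higher in MYC (1.32) and VM tumours (1.14).

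E-cadherin and N-cadherin were set side by side in each library, since their exchange is the textbook measure of epithelial and mesenchymal character. Per kb, and with 1 unit added to each gene, the log2 ratio of Cdh1 to Cdh2 ran from 4.73 to 6.28 in kidney, 3.33 to 5.12 in MYC, 6.62 to 8.23 in VM and 5.91 to 8.06 in VIM tumours. In cells with Dox it was −4.14 to −3.91 in MYC-2983, −1.11 to −0.84 in VM-3055 and −5.97 to −5.55 in VIM-3039 cells. Without Dox it dropped further, to −5.43 to −5.30, −2.62 to −2.33 and −7.56 to −7.37. The ratio was thus above 0 in every tissue library and below 0 in every library of cells. Cdh2 was at or under the floor in 2 of 3 VM and 1 of 3 VIM tumour libraries. The sizes of their ratios rest on the 1 unit added, and the highest, 8.23, is that of a VM tumour with Cdh2 at 0. Tissue and cells differ in library set too, and this cannot be told apart from culture.

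The lines can be set beside tumours of the mouse with the same number. Mouse 2983 gave tumour libraries with 1339.5 and 335 units of Cdh1 and 145 and 24.0 of Cdh2, while MYC-2983 cells with Dox held 309 to 327 and 5384 to 5972. The tumour of mouse 3055 held 274 units of Cdh1 and 0 of Cdh2, while VM-3055 cells with Dox held 471 to 523 and 1025 to 1121. Cdh3 stood at 505 and 288 units in the tumours of mouse 2983 and at 3411 to 3560.3 in its line. For mouse 3055 it was at 210.3 units in the tumour and 431 to 534 in the line. Cdh6 stood at 637 and 2627 units in the tumours of mouse 2983 and at 1099.7 to 1201 in its line, and at 749 in the tumour of mouse 3055 and 965 to 1091 in its line. Cdh16 was at 10230.2 and 12503 units in the tumours of mouse 2983 and at 8373 to 9660.0 in the line, but at 14725 in the tumour of mouse 3055 and at 3464 to 3512 in that line.

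**Figure D5:**
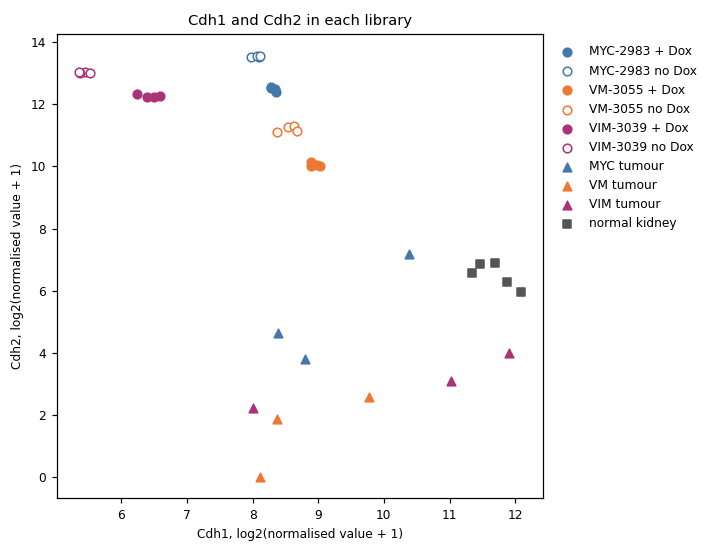
Cdh1 (horizontal axis) against Cdh2 (vertical axis), both as log2(value + 1), in each of the 38 libraries; circles are cells, open without Dox, triangles are tumours and squares are kidneys. All cells lie above, with 1025 units or more of Cdh2, and all tissues below, with 145 units or less, while on the axis of Cdh1 the tumours, from 255 to 3847 units, overlap the cells, from 39.8 to 523.

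Over the 10 group means on the log2 scale, the cadherins followed few common patterns, given here as a description over groups that share lines and library sets. Cdh2 and Cdh3 had r = 0.749, Cdh11 and Cdh16 r = 0.777, and Cdh1 and Cdh3 r = −0.743. Among 13361 genes with at least 50 units in some group, the gene most like Cdh1 was Ehf (r = 0.977), that most like Cdh2 was Galnt10 (r = 0.985) and that most like Cdh6 was Nras (r = 0.981). Irgm2 was nearest to Cdh16 (r = 0.986), Upf3a to Cdh3 (r = 0.957), Nlrc5 to Cdh11 (r = 0.975), Cpeb2 to Cdh13 (r = 0.958) and Kdm5d to Cdh17 (r = 0.938). Cdh4 stayed under 50 units in its highest group mean and was not compared.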

How the data were processed

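RNA of 38 libraries was sequenced with a stranded mRNA kit. The authors aligned reads to mm9 with MapSplice, processed them with UBU, Picard 1.64 and SAMtools, estimated the abundance of UCSC genes by RSEM and set the upper quartile of every library to 1000. The deposited values are this normalised signal, not read counts. Reads per library were estimated here from the worth of 1 read, the most frequent value between 0 and 3, and 94.1% to 95.9% of values under 20 reads came out whole within 0.02. Floors cover counting error only, while the intervals are those of limma and rest on the spread between libraries or animals.

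Groups were compared on log2(value + 1) with limma 3.58.1 in R 4.3.3 (two-sided, trended eBayes, only the groups compared) over genes above 0 in at least 4 libraries of cells or 2 animals. P-values were adjusted by Benjamini-Hochberg over all genes tested in each of 16 comparisons, and a call needed an adjusted p under 0.05 and a difference over 1. The tests were tested on simulated data. Alternatives were other pseudocounts (0.1 and 10), filters, scalings, joint fits, kidney subsets and left-out libraries. Limma voom was added after seeing the data. The 9 genes and the lists were chosen with earlier results of these data known. The genes of each list named are among those with the largest passing changes. In 4 pairs of cell groups that share replicate numbers, same-numbered libraries did not deviate together, so they were treated as unpaired.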

Additional observations from a re-analysis of the deposited data

Results flagged for a closer look

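Of 55 sets of 4 or 5 libraries, 1 per cadherin and group, 4 held a library far from the others, where chance flags about 1 in 20. Kidney replicate 5 held 221.38 units of Cdh3 against 74.97 to 106.57 in the other kidneys, 236.56 units of Cdh6 against 12.11 to 42.34, and 287.16 units of Cdh11 against 87.01 to 140.14. Its summed stroma markers were the highest of the kidneys too, and their part in this was not tested. Cdh16 in replicate 4 of VM-3055 cells without Dox held 9229.78 units against 8913.58 to 8964.33.

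The response to Dox differed between lines for 2 cadherins by the test of the difference. In each pair 1 line held too few reads of the gene to show a response, so the values restate the change in the other line. For Cdh11 it was 1.46 on the log2 scale between VM-3055 and MYC-2983 cells, with VM-3055 cells at or under the floor in 6 of 8 libraries. For Cdh13 it was −2.33 between VM-3055 and MYC-2983 cells and −1.78 between VIM-3039 and MYC-2983 cells, in which Cdh13 was at or under the floor.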

How the results depend on the processing

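The 9 cadherins gave 136 tests, of which 53 passed. Of 913 alternative values of these, 849 kept their call, 64 lost it and 0 reversed. Of 1503 alternative values of the others, 18 passed and 37 reversed. Counts of calls moved as follows. With Dox in MYC-2983 cells the 4 calls became 2 under TMM and 2 under quantile normalisation. VM-3055 against MYC-2983 cells went from 7 to 4 with a pseudocount of 10 and to 4 with a mean of at least 10 units. VM against MYC tumours went from 0 to 1 with all 4 tissue groups in one fit. The Dox response of VM-3055 minus MYC-2983 went from 2 to 1 with a pseudocount of 0.1. That of VIM-3039 minus MYC-2983 went from 1 to 0 with a pseudocount of 0.1 and with voom, to 2 with a pseudocount of 10 and with quantile normalisation, and lay between 1 and 2 with libraries left out, reaching 2 without replicate 4 of VIM-3039 cells without Dox. The causes were not tested.

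Reversals concerned differences that had not passed. TMM turned Cdh11 with Dox in VM-3055 cells to 0.10, Cdh6 in VM-3055 against MYC-2983 cells to 0.016, Cdh3 in VIM-3039 against MYC-2983 cells to 0.0415, and the Cdh6 response of VIM-3039 minus MYC-2983 to 0.0539. Quantile normalisation turned the first to 0.62, the third to 0.0011, Cdh17 in VIM-3039 against MYC-2983 cells to 0.33, Cdh16 in MYC tumours against kidney to 0.31, Cdh13 in VM tumours against kidney to 0.18, Cdh11 in VIM against VM tumours to −0.0929 and the Cdh17 response of VIM-3039 minus MYC-2983 to 0.19. With the B6 kidneys alone Cdh13 in VM tumours stood at 0.69. A pseudocount of 10 turned Cdh17 to −0.17 in VM against MYC tumours, and its responses to −0.0896 (VIM-3039 minus VM-3055), 0.17 (VM-3055 minus MYC-2983) and 0.0818 (VIM-3039 minus MYC-2983).

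With 1 library left out, Cdh11 ran from −0.30 to 0.15 with Dox in VM-3055 cells and from −0.0236 to 0.267 in VIM-3039 against VM-3055 cells. Cdh13 ran from −0.0869 to 1.30 in MYC and from −1.32 to 0.0422 in VM tumours against kidney. In VIM against VM tumours Cdh3 ran from −0.0873 to 1.36 and Cdh11 from −0.0363 to 1.10. In VM against MYC tumours Cdh1 ran from −1.02 to 0.15, Cdh3 from −0.56 to 0.93, Cdh11 from −2.19 to 0.11, Cdh16 from −0.35 to 0.0466 and Cdh17 from −2.04 to 1.54. In VIM against MYC tumours Cdh3 ran from −0.0703 to 1.85, Cdh4 from −0.60 to 0.76 and Cdh11 from −1.75 to 0.50. The response of VIM-3039 minus MYC-2983 ran from −0.0522 to 0.0050 for Cdh6 and from −0.59 to 0.25 for Cdh17.

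Same-numbered libraries share only a number. With the replicate block 5 cadherins passed with Dox in VM-3055 cells, 4 in VIM-3039 cells, and 4 in VIM-3039 against VM-3055 cells both with and without Dox, where Cdh17 joined with Dox (1.02, limma adjusted p = 0.00991). The mean correlation of same-numbered libraries lay between −0.105 and 0.0739.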
